A study of Mus musculus with 42 samples.

Results

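The genes described here are the 7 cyclin-dependent kinase (CDK) inhibitors of the mouse: Cdkn1a, Cdkn1b and Cdkn1c of the CIP/KIP family, and Cdkn2a, Cdkn2b, Cdkn2c and Cdkn2d of the INK4 family. Their probes were found by the RefSeq accession that each array probe carries, with every probe kept and no measured value used in that step. The genes themselves were chosen with earlier results of these data known. This gave 10 of the 55681 probes, and 7 of the 20972 genes with a symbol. Cdkn1a, Cdkn2a and Cdkn2b have 2 probes each, called probe 1 (the brighter) and probe 2, and the other 4 genes have 1 each.

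The 42 arrays, of the Agilent one-colour type, measured RNA of mouse embryonic stem cells (ESCs) and of cells on the way to anterior definitive endoderm (ADE), in 14 groups with 3 arrays each. All cells came from 1 ESC line that reports Gsc as GFP (G) and Hhex as RedStar (H). The 11 untreated groups were ESCs grown with LIF, cells at day 2 (d2), and populations sorted for the reporters: d3G-, d3G+, d4G-, d4G+, d5G-, d5Glow, d5Ghigh, d6G+H- and d6G+H+. In the inhibitor series, d6 cultures had received DMSO before and during differentiation (Control), EPZ6438 at 2.5 µM before it and DMSO during it (ES_EPZ), or DMSO before it and EPZ6438 during it (ADE_EPZ). The labels name no sort for these d6 cultures, and the methods describe ADE cells for arrays in general as sorted, so which cells of the dish they hold is not settled here. The study describes its replicates as independent experiments. The 9 arrays of the inhibitor series filled slides 6 to 8, each with 1 array of every regimen, and the 33 untreated arrays filled slides 1 to 5, so that series and slide cannot be told apart and differences were tested only within a series.

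CDK inhibitors hold the cell cycle in G1. INK4 proteins bind CDK4 and CDK6 and keep D-type cyclins from them, while CIP/KIP proteins bind complexes of cyclin and CDK, above all those of CDK2. Cdkn2a also encodes ARF, which protects p53 by binding MDM2, and Cdkn2a and Cdkn2b are neighbours that Polycomb repressive complexes silence in many young or dividing cells. EPZ6438 (tazemetostat) blocks EZH2, the enzyme of Polycomb repressive complex 2 (PRC2) that methylates lysine 27 of histone H3.

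Each probe is described by its log2 intensity, for which 1 unit is a doubling of brightness. Brightness depends on the probe, so levels are compared between groups and not between genes. Both Cdkn2a probes carry the accession of the ARF transcript, and which exons they hybridise to is not given in the sources used here. A probe was called changed where limma gave a Benjamini-Hochberg adjusted p of at most 0.01 over all probes and the group means differed by 1.5 log2 units or more. All adjusted p values below are of this kind, since permuting 3 arrays against 3 cannot reach such a threshold. In these bulk samples fewer cells that express a gene and less RNA per cell cannot be told apart.

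The sequence before a start site is shown for the 3 genes called higher in ADE_EPZ below and, for comparison, for Cdkn2d, which had the smallest range of all members. Each is the 250 bases before an annotated start, from RefSeq on GRCm38.p6, read 5′ to 3′ on the gene's strand, with every CpG in capitals. Of the 7 genes 6 had an entry in the table, with 9 start sites, and Cdkn1c had none. Cdkn2a start 1 lies at chr4:89294620-89294869 (minus strand), Cdkn2a start 2 at chr4:89282193-89282442 (minus strand), Cdkn2b start 1 at chr4:89311033-89311282 (minus strand), Cdkn1a start 1 at chr17:29090729-29090978 (plus strand) and Cdkn2d start 1 at chr9:21291210-21291459 (minus strand).
Cdkn2a start 1: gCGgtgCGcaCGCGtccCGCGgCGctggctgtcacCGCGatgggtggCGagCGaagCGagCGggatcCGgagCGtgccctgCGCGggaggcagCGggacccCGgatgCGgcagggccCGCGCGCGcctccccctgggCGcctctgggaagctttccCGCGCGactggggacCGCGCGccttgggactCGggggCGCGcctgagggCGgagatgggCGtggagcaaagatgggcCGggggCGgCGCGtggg
Cdkn2a start 2: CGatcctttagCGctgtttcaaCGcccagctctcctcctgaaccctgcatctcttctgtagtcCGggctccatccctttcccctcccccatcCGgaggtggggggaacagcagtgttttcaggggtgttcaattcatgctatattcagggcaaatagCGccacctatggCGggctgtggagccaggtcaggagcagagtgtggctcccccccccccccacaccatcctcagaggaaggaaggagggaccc
Cdkn2b start 1: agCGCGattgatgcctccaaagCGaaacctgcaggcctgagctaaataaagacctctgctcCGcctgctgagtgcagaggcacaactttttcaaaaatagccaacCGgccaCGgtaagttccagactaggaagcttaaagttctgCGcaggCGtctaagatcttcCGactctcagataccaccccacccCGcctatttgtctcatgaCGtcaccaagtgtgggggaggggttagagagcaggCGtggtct
Cdkn1a start 1: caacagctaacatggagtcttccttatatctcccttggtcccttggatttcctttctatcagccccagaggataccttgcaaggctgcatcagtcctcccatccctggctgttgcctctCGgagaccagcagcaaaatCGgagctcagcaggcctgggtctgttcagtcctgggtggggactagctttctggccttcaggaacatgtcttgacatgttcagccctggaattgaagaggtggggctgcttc
Cdkn2d start 1: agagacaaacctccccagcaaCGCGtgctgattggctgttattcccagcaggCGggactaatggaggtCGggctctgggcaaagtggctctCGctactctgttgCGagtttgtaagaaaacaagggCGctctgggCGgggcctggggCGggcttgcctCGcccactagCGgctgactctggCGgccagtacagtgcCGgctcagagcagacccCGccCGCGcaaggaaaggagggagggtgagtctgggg

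Cdkn2a start 1 was the densest of the 5, with 40 CpGs and a G plus C share of 78.4%, and had more CpGs than 98.7% of the 32851 windows in the table. Over all windows the median was 6 CpGs and 52.4% G plus C. The second Cdkn2a start, 12427 bases further along the gene, had 7 CpGs and 60% G plus C. Cdkn2b, whose start lies 16413 bases from Cdkn2a start 1, had 12 CpGs, and Cdkn1a start 1 had 2. A second start of Cdkn1a, not printed, had 19 CpGs, 2 matches to GGGCGG and 1 to CAGACA in its window. The starts of the 3 genes called higher in ADE_EPZ thus ran from 2 to 40 CpGs, and Cdkn2d, which did not pass the test, had 16. Of the letters searched on both strands, GGGCGG (the core of an Sp1 motif) occurred 2 times before Cdkn2a start 1 and 3 times before Cdkn2d, against 32.7% of all windows with a match, and TTTCCCGC (an E2F motif) occurred 1 time before Cdkn2a start 1, against 0.895% of windows. TTTGGCGC, another E2F motif, and CAGACA, a Smad motif, occurred in none of the 5 printed windows, against 0.417% and 17.1% of all windows. A match of letters is a description and not a site of binding.

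After exposure to EPZ6438 during differentiation 3 of the 7 inhibitors, Cdkn2a, Cdkn2b and Cdkn1a, were higher than in Control by all 6 of their probes, and none was called lower. Among all 55681 probes 1.38% were called in ADE_EPZ against Control, 540 higher and 226 lower. The median log2 fold change of the 10 member probes was 1.88, against -0.02 for all probes. The Control arrays serve in both comparisons of EPZ6438 with Control, which are therefore not independent.

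Cdkn2a, which encodes p16INK4a and ARF, changed most. Its probe 1 read 10.65, 10.69 and 10.17 in Control, 12.26, 11.73 and 13.18 in ES_EPZ, and 14.62, 14.65 and 14.58 in ADE_EPZ, for replicates 1, 2 and 3. The 3 regimens did not overlap, and the ADE_EPZ arrays lay within a SD of 0.03 of each other (n = 3) where those of ES_EPZ had a SD of 0.73. ADE_EPZ exceeded Control by 4.11 (SE 0.52) on the log2 scale, or 17.3-fold, with an adjusted p of 2.69e-06 (limma). Probe 2 read 7.26, 7.16 and 6.58 in Control, 8.61, 7.88 and 9.51 in ES_EPZ, and 10.8, 10.83 and 10.73 in ADE_EPZ, and gave 3.79 (SE 0.46) with an adjusted p of 1.46e-06 (limma).

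Cdkn2b, which encodes p15INK4b, an inhibitor of CDK4 and CDK6 known to respond to TGF-beta, took the same order. Probe 1 read 7.59, 8.14 and 7.65 in Control, 10.29, 9.05 and 11.35 in ES_EPZ, and 11.55, 11.38 and 12.08 in ADE_EPZ. Every ADE_EPZ array was above every ES_EPZ array, though replicate 2 of ADE_EPZ was above replicate 3 of ES_EPZ by a few hundredths only, and all of both were above Control. The difference of ADE_EPZ from Control was 3.88 (SE 0.53), or 14.7-fold, with an adjusted p of 7.24e-06 (limma). Probe 2, which was well above background on 2 of the 3 Control arrays, gave 3.33 (SE 0.45) with an adjusted p of 5.75e-06 (limma).

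Cdkn1a encodes p21, a CIP/KIP inhibitor and a classical target of p53. Its probe 1, printed 10 times on each array, read 10.88, 10.38 and 10.47 in Control, 11.51, 11.1 and 11.79 in ES_EPZ, and 12.39, 12.41 and 12.67 in ADE_EPZ. On this probe the regimens again stood apart without overlap, and the change of 1.91 (SE 0.33), or 3.76-fold, had an adjusted p of 0.00017 (limma). The dimmer probe 2, with the accession of another transcript, read 6.38, 6.45 and 6.36 in Control. It read 7.6, 6.98 and 8.08 in ES_EPZ and 8.43, 8.07 and 8.19 in ADE_EPZ, so these 2 regimens overlapped. Its change from Control to ADE_EPZ was 1.84 (SE 0.32) with an adjusted p of 0.000183 (limma). Over the 10 copies of probe 1 the spread within an array had a median SD of 0.1, against a median SD of 0.36 between the arrays of a group.

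The other 4 inhibitors did not pass the test in ADE_EPZ against Control. Cdkn1b encodes p27, a CIP/KIP inhibitor of CDK2, and read 11.08, 10.94 and 11.06 in Control and 10.34, 10.68 and 10.73 in ADE_EPZ, a difference of -0.44 with an adjusted p of 0.091 (limma). Cdkn1c encodes p57, a CIP/KIP inhibitor from an imprinted domain, and read 12.3, 12.08 and 12.18 in Control and 11.68, 11.73 and 10.87 in ADE_EPZ, a difference of -0.76 with an adjusted p of 0.423 (limma). Cdkn2d encodes p19INK4d and read from 10.05 to 10.15 in Control and from 10 to 10.44 in ADE_EPZ, a difference of 0.12 with a 95% interval of -0.24 to 0.48. Cdkn2c encodes p18INK4c and was well above background on 0 Control, 0 ES_EPZ and 2 ADE_EPZ arrays. By group means ADE_EPZ was at least 1.7-fold brighter, a bound that allows for the dim group and not for the spread between arrays. The difference was 0.82, with a 95% interval of 0.32 to 1.31 and an adjusted p of 0.0237 (limma). Replicate 3 of ADE_EPZ (5.24) did not exceed replicate 3 of Control (5.25).

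**Figure D1:**
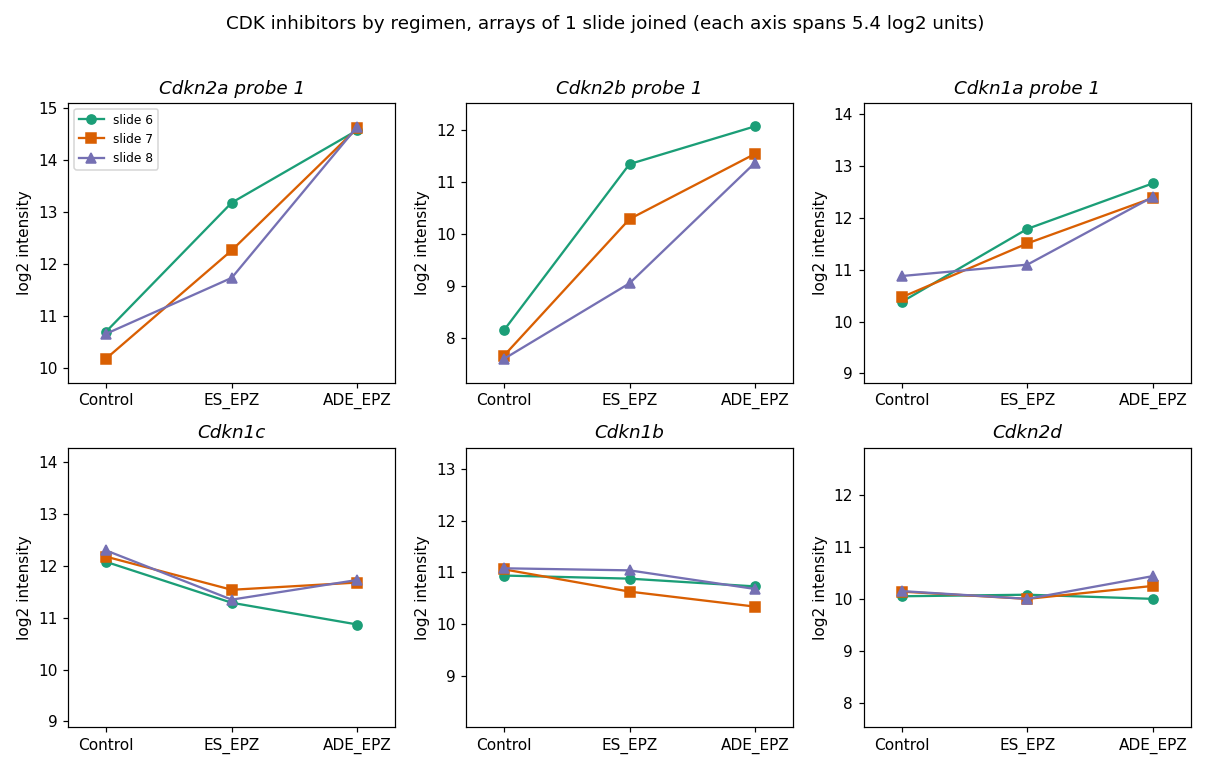
Log2 intensity of probe 1 of Cdkn2a, Cdkn2b and Cdkn1a and of the probes of Cdkn1c, Cdkn1b and Cdkn2d in Control, ES_EPZ and ADE_EPZ. There is 1 point per array, the 3 arrays of a slide are joined by a line, and each axis spans 5.4 log2 units. The dimmer probes of the first 3 genes and Cdkn2c are not shown. The lines of Cdkn2a, Cdkn2b and Cdkn1a climb from Control through ES_EPZ to ADE_EPZ on all 3 slides, while those of Cdkn1b, Cdkn1c and Cdkn2d stay within about 1.21 units.

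The slides gave similar sizes for the difference between ADE_EPZ and Control. Within slides 6, 7 and 8, Cdkn2a probe 1 was higher by 3.89, 4.45 and 4, Cdkn2b probe 1 by 3.95, 3.89 and 3.79, and Cdkn1a probe 1 by 2.29, 1.91 and 1.53. Of the 6 calls, 1 was lost under 1 of 17 other ways of processing: Cdkn1a probe 2 gave 1.45 with a background offset of 50.

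Markers of cell state moved with the regimens too, in values averaged over each list on the log2 scale per array. The 5 definitive endoderm markers lay between 11.21 and 11.75 in Control, 12.02 and 12.49 in ES_EPZ, and 12.41 and 12.85 in ADE_EPZ, all 5 were well above background on every array of the 3 regimens, and 1 of 5, Hhex, was called higher in ADE_EPZ than in Control (2.23, SE 0.4). The 5 primitive streak markers lay between 10.45 and 10.47 in Control and 9.67 and 10.05 in ADE_EPZ, with 1 of 5, Mixl1, called lower (-3.34, SE 0.34). The uncalled streak markers were split: Eomes gave -1.41 and T -0.46, while Gsc gave 0.99 and Lhx1 1.39. The 6 ESC markers lay between 7.47 and 8.04 in Control and 8.41 and 8.75 in ADE_EPZ, with 1 of 6, Zfp42, called higher (1.51, SE 0.34). Of the uncalled ESC markers Esrrb gave 1.59, Tdh 1.26, Pou5f1 0.75, Nanog 0.08 and Klf4 -0.79. The 4 trophoblast markers lay between 7.77 and 8.65 in Control and 9 and 9.8 in ADE_EPZ with 0 called, against overlap between Control and ADE_EPZ for the neurectoderm, haemato-vascular and fibroblast lists, with the neurectoderm marker Neurod1 well above background on 0 arrays of the 3 regimens. The part of these shifts in the levels of the CDK inhibitors was not tested.

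EPZ6438 before differentiation only (ES_EPZ) left the same 3 genes with higher means than Control, but no member probe was called, where 0.233% of all probes were. The values of ES_EPZ given above were higher than Control by 2.43 (SE 0.53, adjusted p 0.0114 by limma) for Cdkn2b probe 1 and by 1.9 (SE 0.45, adjusted p 0.0202 by limma) for its probe 2. For Cdkn2a they were higher by 1.89 (SE 0.52, adjusted p 0.0504 by limma) and 1.67 (SE 0.46, adjusted p 0.0497 by limma). All 4 differences exceeded the size asked for and missed the adjusted p. Cdkn1a gave 0.89 and 1.16, with adjusted p values of 0.195 and 0.0549 (limma), and Cdkn1c gave -0.79 with an adjusted p of 0.547 (limma). At an unadjusted p under 0.05 by limma there were 6 member probes, against 12.7% of all probes.

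The ES_EPZ arrays differed among themselves in a way shared by these genes: replicate 3 was highest and replicate 2 lowest for both Cdkn2a probes, both Cdkn2b probes and both Cdkn1a probes. Within slides 6, 7 and 8, which carry ES_EPZ replicates 3, 1 and 2, Cdkn2b probe 1 exceeded Control by 3.21, 2.63 and 1.46. Without ES_EPZ replicate 2, both Cdkn2b probes were called, at 3.03 and 2.3 with adjusted p values of 0.00185 and 0.00594 (limma), where 0.496% of all probes were. With slide as a fixed block 3 member probes were called, where 0.309% of all probes were: Cdkn2a probe 1 (adjusted p 0.00878), Cdkn2b probe 1 (0.00461) and Cdkn2b probe 2 (0.00936), all by limma. No member probe was called with the arrays of this series only (0.0413% of all probes called) or of the compared groups only (0%).

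The regimens themselves were compared as ADE_EPZ against ES_EPZ, from which the Control arrays drop out. No member probe was called in the fit of all arrays with no block, and 0.0647% of all probes were. Cdkn2a probe 2 alone was called under 3 other settings with no block: a background offset of 50 (2, adjusted p 0.00177), no background correction (2.04, adjusted p 0.00438) and without ES_EPZ replicate 3 (2.54, adjusted p 0.00629), all by limma. Of all probes 0.0305%, 0.0359% and 0.115% were called under these settings. At an unadjusted p under 0.05 by limma there were 7 member probes, against 8.97% of all probes. Cdkn2a probe 1 was higher in ADE_EPZ by 2.22 (SE 0.52, adjusted p 0.0325 by limma), with a 95% interval of 1.16 to 3.28, and probe 2 by 2.12 (SE 0.46, adjusted p 0.0163 by limma). In this comparison equal replicate numbers share a slide, and with the replicate number as a block both Cdkn2a probes were called, with adjusted p values of 0.00225 and 0.00265 (limma). With that block 0.0988% of all probes were called. Within slides 6, 7 and 8 Cdkn2a probe 1 was higher by 1.4, 2.36 and 2.92.

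Cdkn2b differed between the regimens by 1.44 and 1.43 for its probes, with adjusted p values of 0.292 and 0.164 (limma), and Cdkn1a by 1.02 and 0.68, with adjusted p values of 0.199 and 0.536 (limma). Cdkn2c was by group means at least 2-fold brighter in ADE_EPZ, and was well above background on 2 of the 3 ADE_EPZ arrays and on none of ES_EPZ. Its difference was 1.15, with a 95% interval of 0.66 to 1.65 and an adjusted p of 0.0129 (limma). Cdkn1c differed by 0.03, with an interval of -0.94 to 1 that leaves room for a change of nearly 1 unit either way.

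**Figure D2:**
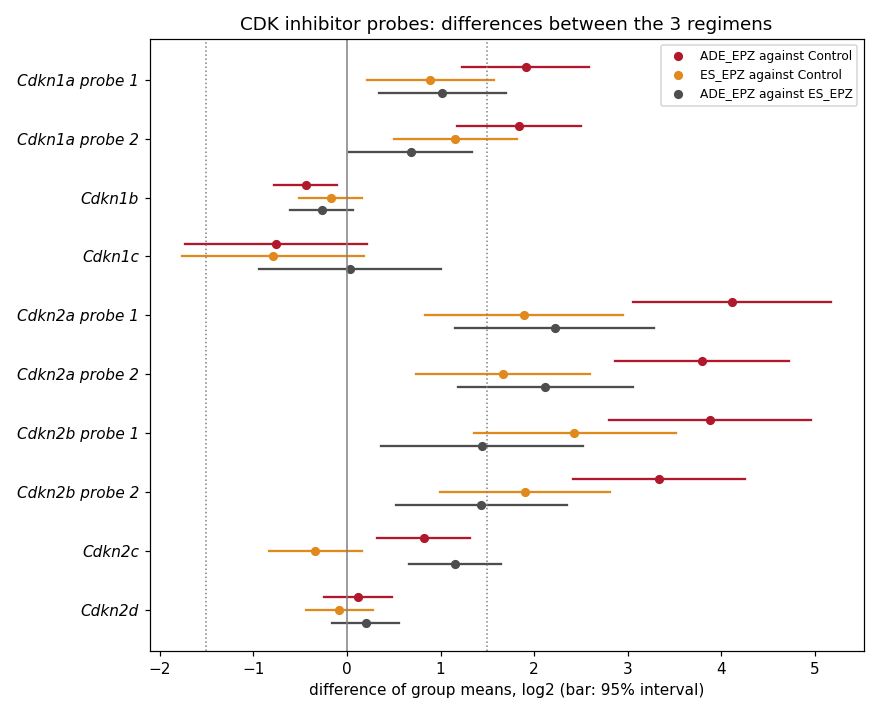
Differences of group means on the log2 scale (points) with 95% intervals (bars) for each member probe in ADE_EPZ against Control, ES_EPZ against Control, and ADE_EPZ against ES_EPZ; dotted lines mark 1.5 in either direction. Cdkn2a probe 1 lies at 4.11, 1.89 and 2.22 in these comparisons, and Cdkn2d lies close to 0 in all of them.

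In the untreated series the inhibitors had patterns of their own. Over the 11 untreated groups 8 of the 10 member probes varied by an F test at an adjusted p of at most 0.01 (limma), where 29.7% of all probes did. Those that did not pass were Cdkn2d (adjusted p 0.376) and Cdkn1a probe 1 (adjusted p 0.0128). Without replicate 1 of every group, or without replicate 2, 5 probes passed. Markers were set against the labels for d6 and ESCs only, where 6.02% (d6G+H-) and 6.57% (d6G+H+) of all probes were called. The lists hold Gsc and Hhex, the genes of the sorted reporters, and Hhex had means of 12.17 in d6G+H- and 12.63 in d6G+H+. Against ESCs, both d6 populations were called lower for 6 of 6 ESC markers and 2 of 4 neurectoderm markers. Both were called higher for 5 of 5 definitive endoderm markers and 4 of 5 primitive streak markers. Both were also called higher for 3 of 4 trophoblast markers, of which Ascl2 is in the list of Cdkn1c neighbours too, while the other one, Cdx2, gave -2.15 (adjusted p 0.0269) in d6G+H- and was called lower in d6G+H+ (-2.85, adjusted p 0.00246), both by limma.

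Cdkn2a was highest at d6, among the untreated groups. Probe 1 read 10.56, 10.98 and 8.91 in ESCs, 12.8, 12.02 and 11.07 in d6G+H-, and 12.68, 12.76 and 11.81 in d6G+H+. Every d6 array was above every ESC array, by little where d6G+H- replicate 3 met ESC replicate 2, and ESC replicate 3 was well below the other ESC arrays. The d6G+H- cells exceeded ESCs by 1.81 (SE 0.52) with an adjusted p of 0.00824, and the d6G+H+ cells by 2.27 (SE 0.52) with an adjusted p of 0.000858 (both limma). Probe 2 gave 1.68 and 1.96, with adjusted p values of 0.00526 and 0.00101 (limma). The lowest means of probe 1 were those of d3G+ and d4G+, both 9.02, and neighbouring groups in the order of the 11 means overlapped in every case.

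No group before d6 was called against ESCs for Cdkn2a. Among the sorted pairs, G+ cells read lower than G- cells at d4, with 8.56, 9.61 and 8.89 against 10.57, 10.67 and 9.98 for probe 1, a difference of -1.39 on which the arrays did not overlap and which had an adjusted p of 0.151 (limma).

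In both comparisons of d6 with ESCs, 3 of the 10 member probes were called, all higher: the 2 of Cdkn2a and Cdkn1a probe 2. Over all probes 6.02% were called for d6G+H- and 6.57% for d6G+H+, or 10% and 10.9% with dim probes left out. The share of 3 of 10 was higher, but these probes stand for 2 of the 7 genes, as both Cdkn2a probes read 1 gene. These calls depended on single arrays of either group. Without ESC replicate 3 there were 0 calls in either comparison, and Cdkn2a probe 1 gave 1.19 (adjusted p 0.133) and 1.65 (adjusted p 0.0231) by limma. For d6G+H- there were also 0 calls without its own replicate 1 and 1 without ESC replicate 1, and without its replicate 2 both Cdkn2a calls were lost (1.78 and 1.64, with adjusted p values of 0.0267 and 0.0194) and Cdkn1c was called lower (-1.9, adjusted p 0.00577), all by limma. For d6G+H+ there were 6 without its own replicate 3 and 5 without ESC replicate 2, where 6.79% and 6.98% of all probes were called. Within slides 1 and 5 Cdkn2a probe 1 exceeded ESCs by 1.46 and 2.16 in d6G+H-, and within slide 3 by 1.71 in d6G+H+.

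Cdkn1a probe 2 read 5.75, 5.97 and 5.17 in ESCs, 7.59, 7.4 and 6.73 in d6G+H-, and 7.64, 7.49 and 6.66 in d6G+H+. The d6 arrays were all above the ESC arrays, by 1.61 (SE 0.32, adjusted p 0.000201 by limma) and 1.63 (SE 0.32, adjusted p 0.000146 by limma). The brighter probe 1 gave 0.9 and 1.18, with adjusted p values of 0.0489 and 0.00716 (limma), below the size asked for. The 2 probes also ordered the groups differently: probe 1 was highest in d4G- (mean 11.19, SD 0.1, n = 3) and probe 2 in d6G+H+ (mean 7.26, SD 0.53, n = 3).

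Cdkn2b was likewise highest at d6, but its distance from ESCs was not called. Probe 1 read 8.64, 9.27 and 7.55 in ESCs, 7.18, 7.03 and 7.18 at d2, 10.58, 9.96 and 9.07 in d6G+H-, and 11.25, 9.85 and 9.48 in d6G+H+. In the order of means ESCs came next below the d6 populations, which exceeded them by 1.39 (adjusted p 0.0568) in d6G+H- and 1.71 (adjusted p 0.0142) in d6G+H+ by limma. For d6G+H+ the call was made under 6 of 18 other ways of processing.

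Cdkn2b was called higher in d6G+H- than in d5Ghigh, the comparison made between d5 and d6. At d2 its probe 1 differed from ESCs by -1.36, with a 95% interval of -2.43 to -0.28, and was not called. In d5Ghigh, probe 1 read 6.45, 7.58 and 8.48, below all 3 arrays of d6G+H-. Of the member probes 3 were called in d6G+H- against d5Ghigh, where 1.13% of all probes were: Cdkn2b probe 1 higher by 2.37 (SE 0.53, adjusted p 0.00363), Cdkn2b probe 2 higher by 1.82 (SE 0.45, adjusted p 0.0084), and Cdkn1c lower, all by limma. Cdkn2a differed by 1.88 and 1.81, with adjusted p values of 0.0215 and 0.0104 (limma). Equal replicate numbers deviated together in these groups, and with the replicate number as a block both Cdkn2a probes were called as well, with adjusted p values of 0.00175 and 0.00183 (limma), for 5 calls in all. With that block 1.24% of all probes were called. The difference was not even over replicates: within slide 1 Cdkn2b probe 1 was higher by 2.38 and within slide 5, which holds replicate 3 of both, by 0.59. No member probe was called without d6G+H- replicate 1, without d5Ghigh replicate 1 or without d5Ghigh replicate 2 (Cdkn2b probe 1 gave 2.01, 1.84 and 2.41, with adjusted p values of 0.0542, 0.0645 and 0.0178 by limma), and 1 was called without d6G+H- replicate 2. In the first 3 of these, 0.605%, 0.627% and 0.65% of all probes were called.

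**Figure D3:**
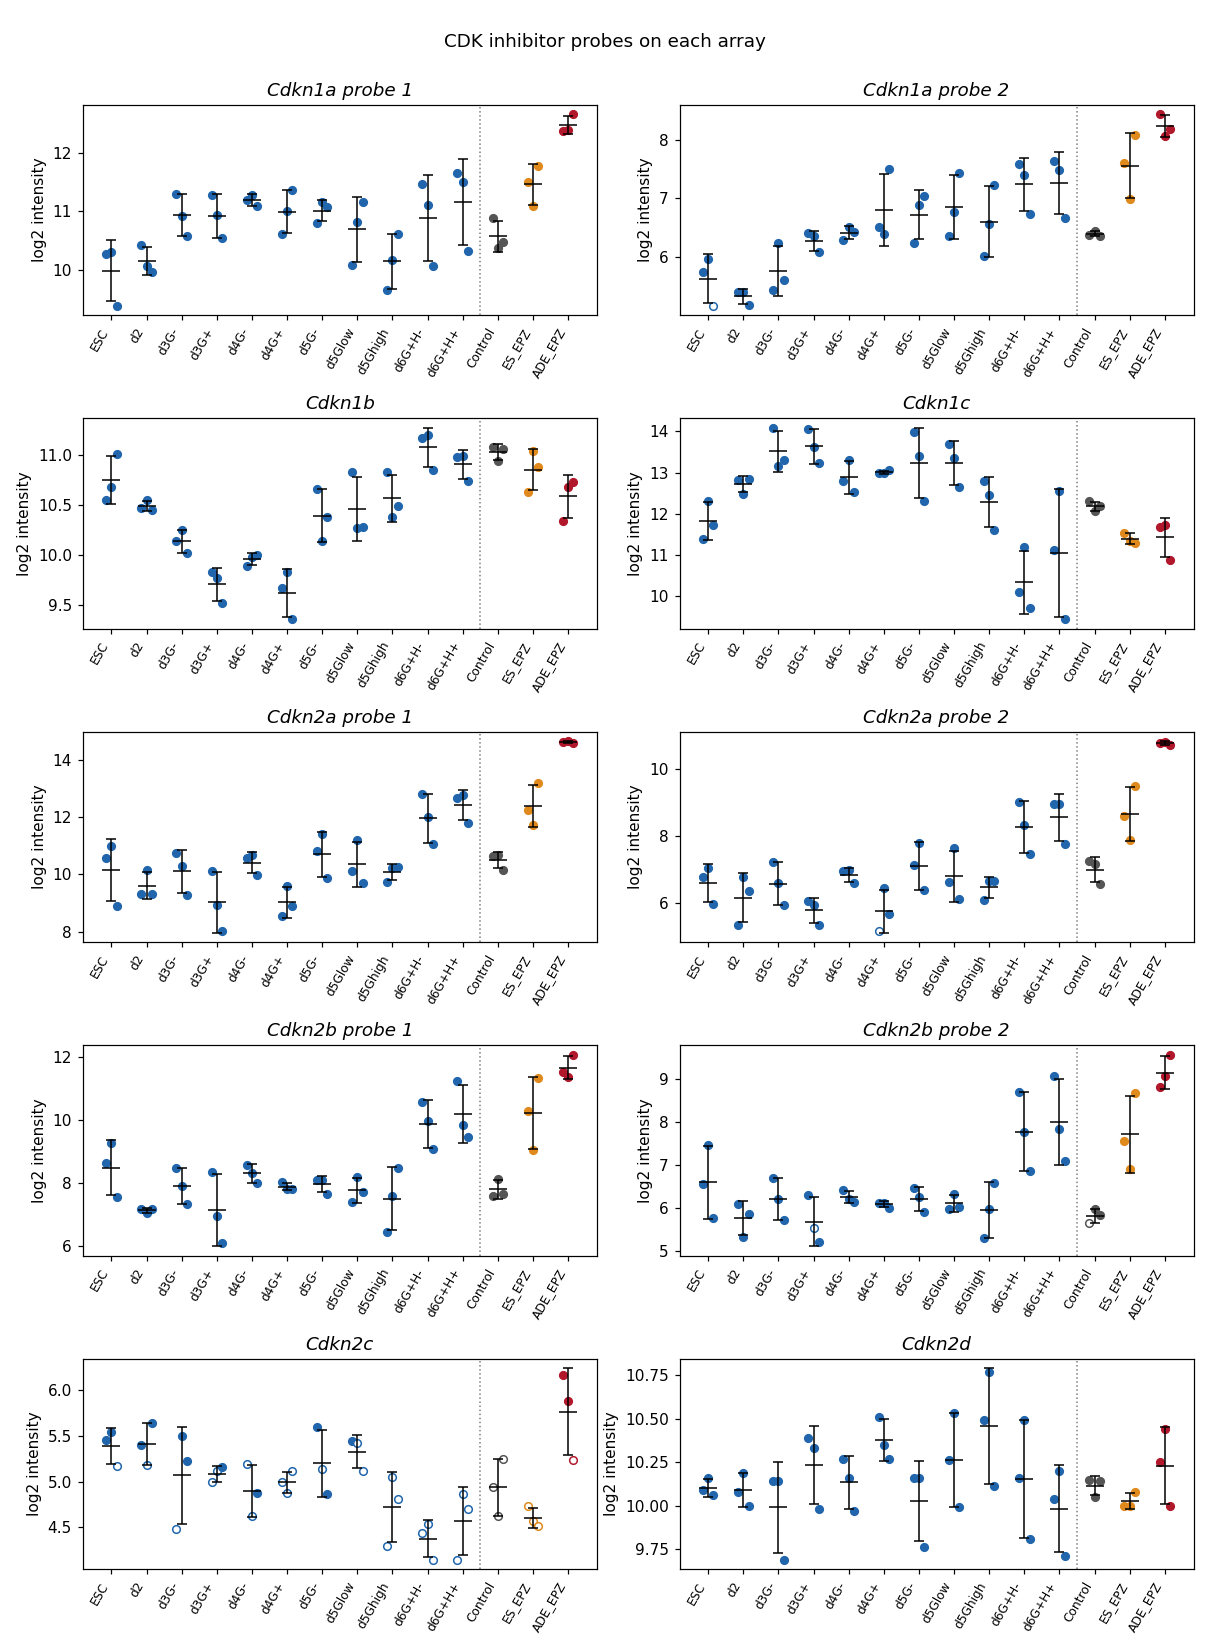
Log2 intensity of each member probe on the 42 arrays (points), by group, with mean and SD (n = 3) as horizontal and vertical bars and open points for arrays not well above background; a dotted line parts the untreated series from the inhibitor series, which lie on different slides. Among the untreated groups Cdkn2a and Cdkn2b are highest at d6, Cdkn1c is highest at d3 and lowest at d6, and Cdkn1b is lowest in d3G+ and d4G+.

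Cdkn1c ran the other way. It read 11.4, 12.32 and 11.74 in ESCs, 14.06, 13.61 and 13.23 in d3G+, 12.8, 12.46 and 11.61 in d5Ghigh, 10.1, 11.19 and 9.73 in d6G+H-, and 11.13, 12.56 and 9.45 in d6G+H+. All d3G+ arrays were above all ESC arrays and all d6G+H- arrays below them, while the d6G+H+ arrays spread over more than 3 units and overlapped those of ESCs and of d6G+H-. Cdkn1c was the 1 member probe called in d3G+ against ESC (1.81, SE 0.48, adjusted p 0.00562 by limma), where 3.83% of all probes were called, so that 1 of 10 is no result about the members as a group. That call was lost without d3G+ replicate 1 or 2 (1.6 and 1.82, with adjusted p values of 0.0381 and 0.0195) and without ESC replicate 1 or 3 (1.6 and 1.77, with adjusted p values of 0.0419 and 0.0225), all by limma. The G- cells of d3 read 14.08, 13.15 and 13.3, and G+ differed from them by 0.12, with a 95% interval of -0.85 to 1.09.

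From d5Ghigh to d6G+H- Cdkn1c fell by 1.95 on the log2 scale (SE 0.48, adjusted p 0.00804 by limma). Within slides 1 and 5 the difference was -1.27 and -1.88. Leaving out any 1 of d6G+H- replicates 1 and 3 and d5Ghigh replicates 1 and 2 gave -1.83, -1.65, -1.7 and -1.87, with adjusted p values of 0.0579, 0.0623, 0.0738 and 0.0473 (limma). Against ESCs the d6G+H- value was -1.48 (adjusted p 0.0202) and the d6G+H+ value -0.77 (adjusted p 0.312) by limma.

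Cdkn1b was lowest in the middle of the course. It read 10.55, 10.68 and 11.01 in ESCs, 9.83, 9.77 and 9.52 in d3G+, 9.67, 9.83 and 9.36 in d4G+, and 11.17, 11.2 and 10.85 in d6G+H-. Against ESCs it differed by -1.04 in d3G+ (adjusted p 1.17e-05), -0.79 in d4G- (adjusted p 0.000977) and -1.13 in d4G+ (adjusted p 2.64e-06), all by limma, with no overlap of arrays in any of these comparisons. These differences passed the adjusted p and stayed under the size needed for a call. In the order of the 11 means, d3G+ and d4G- did not overlap, nor did d4G- and d3G-, and all other neighbours did.

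Cdkn2c and Cdkn2d gave the smallest ranges of group means over the untreated groups, 1.02 and 0.48. Cdkn2c was well above background on 13 of the 42 arrays. It was brightest in ESCs (5.45, 5.54 and 5.17) and at d2 (5.4, 5.18 and 5.64), with 2 of 3 arrays above background in each, and was on 0 of the untreated d6 arrays above background. By group means it was at least 1.48-fold lower than in ESCs for d6G+H- and at least 1.35-fold lower for d6G+H+. The differences were -1.01 (95% interval -1.5 to -0.51, adjusted p 0.00158) and -0.82 (95% interval -1.31 to -0.32, adjusted p 0.00998), both by limma. Cdkn2d ran from 9.69 on an array of d3G- to 10.77 on one of d5Ghigh, and its groups overlapped with every neighbour.

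No member probe was called at d2 (0.903% of all probes called against ESC), d3G- (1.35%), d4G- (1.9%), d4G+ (4.35%), d5G- (2.56%), d5Glow (4.55%) or d5Ghigh (4.81%). No member was called between sorts of 1 day either: d3G+ against d3G- (0.984% of all probes called), d4G+ against d4G- (1.13%), d5Glow against d5G- (0.39%), d5Ghigh against d5G- (1.27%) and d5Ghigh against d5Glow (0.122%). Between d6G+H+ and d6G+H-, which differ in the Hhex reporter, 0% of all probes were called, and at an unadjusted p under 0.05 by limma there were 0 member probes and 2514 of all probes (4.52%). The difference there was 0.45 for Cdkn2a probe 1 and 0.32 for Cdkn2b probe 1, with SEs of 0.52 and 0.53.

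**Figure D4:**
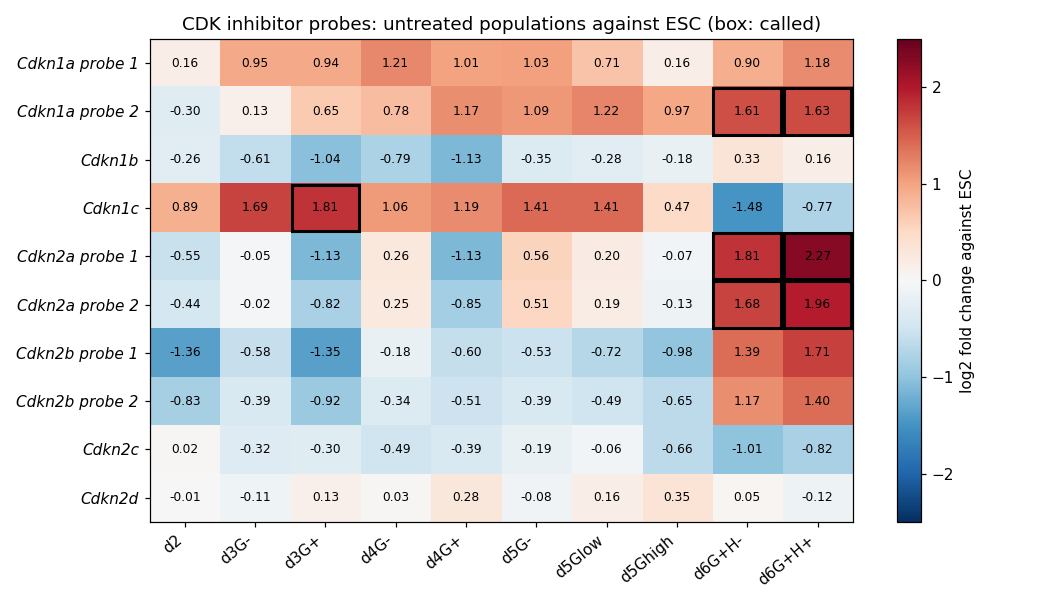
Log2 fold change of each member probe (rows) in the 10 untreated ADE groups (columns) against ESC, printed in each cell and shown by colour from blue (lower) to red (higher), with a box around the called ones. The boxes mark Cdkn1c in d3G+ (1.81) and, in both d6 populations, Cdkn1a probe 2 and the Cdkn2a probes.

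Cdkn2a and Cdkn2b moved together. Over the 14 group means their probes 1 had a Pearson correlation of 0.952, which takes in the distance between the series, and over the 11 untreated group means one of 0.899. Over the 42 arrays the deviations from the group means had one of 0.77, against 0.9 between the Cdkn2a probes and 0.93 between the Cdkn2b probes. These are descriptions: arrays share slides, and the group means share the change at d6 and with EPZ6438. Cdkn1a probe 1 deviated with Cdkn2b probe 1 (0.74) and Cdkn2a probe 1 (0.65) as well.

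**Figure D5:**
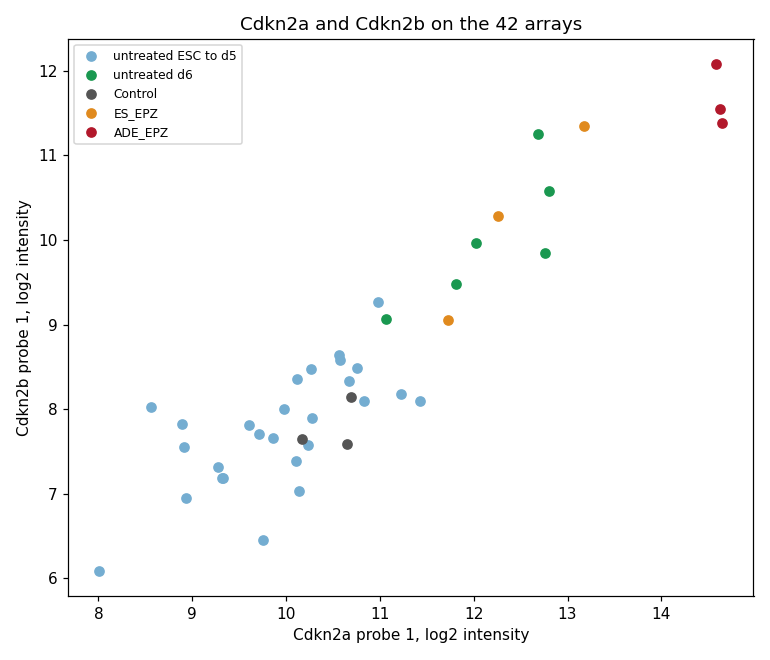
Log2 intensity of Cdkn2a probe 1 (horizontal) and Cdkn2b probe 1 (vertical) on the 42 arrays, coloured by untreated ESC to d5, untreated d6, Control, ES_EPZ and ADE_EPZ. The 2 series lie on different slides, so positions are read within each: in the inhibitor series the means are 10.5 and 7.79 for Control, 12.39 and 10.23 for ES_EPZ, and 14.62 and 11.67 for ADE_EPZ.

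Among 5450 genes whose group means spanned at least 1.5 log2 units, the ones most like each member over the 14 group means of both series were as follows, with the Pearson correlation over the 11 untreated groups after it. For Cdkn2a they were Tmem63b (0.959 and 0.962), D430019H16Rik (0.955 and 0.924) and Cdkn2b (0.952 and 0.899). For Cdkn2b they were Prdm16 (0.958 and 0.918), Adgrg6 (0.952 and 0.893) and Cdkn2a (0.952 and 0.899), so that the neighbours were among each other's closest 3. For Cdkn1a they were Crispld2 (0.921 and 0.876), Tafa5 (0.906 and 0.834) and Cracdl (0.898 and 0.717), and for Cdkn1c Sdc1 (0.966 in both), Fgfr1 (0.947 and 0.952) and Antxr1 (0.941 and 0.962).

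The genes around the inhibitors in their pathway were taken from fixed lists, chosen with earlier results of these data known, with the brightest probe of each gene. In ADE_EPZ against Control, among the targets of the inhibitors, 0 of 4 CDKs (median -0.44), 0 of 9 cyclins (-0.22), 0 of 3 members of the RB family (-0.31) and 0 of 8 E2F factors (0.01) were called, beside a median of -0.02 for all probes. Of all probes 1.38% were called in this comparison. Of 8 genes that act in the turnover of CDK inhibitors 0 were called, and of 8 in the TGF-beta and Activin response 0. Of 10 genes in the list of Polycomb genes known to act on Cdkn2a, which also holds the opposing demethylase Kdm6b, 0 were called. Of 16 genes of the p53 network 3 were called higher: Btg2, an antiproliferative gene (1.89, SE 0.36, adjusted p 0.000372), Ccng1, the cyclin G1 gene (1.58, SE 0.26, adjusted p 6.87e-05), and Trp53inp1, a p53-induced nuclear protein (1.56, SE 0.27, adjusted p 0.000126), all by limma, with a median of 0.56 for the list. Under 17 other ways of processing these calls were made 17, 16 and 15 times. In ES_EPZ against Control and in ADE_EPZ against ES_EPZ 0 genes of any of these lists were called.

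The chromosomal neighbours were taken from lists too. Beside Cdkn2a and Cdkn2b, 0 of the 2 neighbours Mtap and Dmrta1 were called in ADE_EPZ against Control, with a median of -0.71. Beside Cdkn1c, 1 of 12 imprinted neighbours was called, Phlda2, a gene that restrains placental growth, which was lower by 2.69 in size (log2 fold change -2.69, SE 0.47, adjusted p 0.000149 by limma). With 1.38% of all probes called, this single gene is no result about the neighbours as a group. H19 had no matched probe.

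At d6 against ESC, where 6.02% and 6.57% of all probes were called, the same lists gave these calls, with values for d6G+H- first and d6G+H+ second. Of 9 cyclins 2 were lower in both, Ccnd1, the cyclin D1 gene (-2.43 and -3.54), and Ccne1, the cyclin E1 gene (-1.86 and -1.75), and the median of the list was -1.11 and -1.05 beside 0.01 and 0 for all probes. E2f8, a repressive E2F, was lower in both (-2.19 and -2.21) and E2f1 in d6G+H+ (-1.55), while 0 of 4 CDKs and 0 of 3 RB family genes were called. In the p53 network Btg2 was higher (2.26 and 2.48) and Pmaip1, a proapoptotic gene, lower (-1.77 and -1.97), 2 of 16 in all. In the TGF-beta and Activin list 1 of 8 genes was called higher and 1 lower in both, with list medians of -0.03 and -0.1. The higher one was Pmepa1, a feedback inhibitor of TGF-beta signalling (2.87 and 2.79), and the lower one is not reported here. The highest adjusted p among the calls named in this paragraph was that of E2f1, 0.00256 (limma).

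The neighbour Dmrta1 was at least 5.33-fold and 5.07-fold higher at d6, with 0 of 3 ESC arrays above background, and Mtap was called lower in d6G+H+ (-1.51), a call made under 10 of 18 other ways of processing. Of the 12 imprinted neighbours Phlda2 was lower (-2.32 and -2.53) and Ascl2 higher (2.17 and 2.42). Of the 10 genes in the Polycomb list, Kdm6b was higher (2.54 and 2.58), which is a demethylase of histone H3 lysine 27 and not a Polycomb gene. Cbx8 was at least 3.1-fold and 2.65-fold higher (0 ESC arrays above background), Bmi1 was higher in d6G+H- (1.54), and Eed, a core subunit of PRC2, was lower (-2.08 and -2.11).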

How the data were processed

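RNA of 14 groups, 3 arrays each, was hybridised to 42 Agilent one-colour arrays. The authors deposited 1 table of log2 intensity (normexp background correction with an offset of 10, quantile normalisation over all arrays) and 1 scanner file per array, whose foreground and background intensity served in alternatives and quality marks. Per the file headers, Feature Extraction 11.0.1.1 was used for the untreated and 12.0.1.1 for the inhibitor series. The deposited values correlated at 0.999979 or more with values recomputed from the scanner files. Well above background were 24459 to 40398 probes on an array, 0 values were saturated, and the number of arrays limits precision.

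With limma 3.58.1 in R 4.3.3, 1 mean per group was fitted over all 42 arrays. Symbols came from RefSeq accessions (21865 of 23171 matched, GRCm38.p6), and the array annotation uses another build. Members and lists were chosen with earlier results of these data known. Named genes are all members, list genes called (at most 4 a list) and the 3 most alike of each member with a range of at least 1.5, of which 1 list gene is not reported here. A bound ("at least N-fold") sets the mean of the bright group against the dimmest probes well above background. It does not take in the spread between arrays.

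Replicate numbers were taken to pair groups where same-numbered arrays deviated together, at correlations over 0.1 in all 3 pairs: ADE_EPZ with ES_EPZ (0.22, 0.22 and 0.3, on shared slides), d6G+H- with ESC (0.12, 0.2 and 0.43) and d6G+H- with d5Ghigh (0.18, 0.23 and 0.3). Alternatives covered source, background, normalisation, dim probes, slide, replicate block, arrays fitted and each array left out. The test was also run on simulated data with independent noise on each array. That simulation had no slide or replicate structure, so it does not cover arrays that deviate together.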

Additional observations from a re-analysis of the deposited data

How the results depend on the processing

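Over 103 results and 1813 values under other settings, 1685 kept their side of the threshold, 81 lost a call, 47 gained one and 0 called values reversed. Among the 1685, the sign of 7 uncalled values changed, 4 of them of Cdkn1c in ADE_EPZ against ES_EPZ. ADE_EPZ against Control kept 6 calls, or 5 with an offset of 50. An offset of 50 and no background correction each gave 1 call in ES_EPZ against Control, 1 in ADE_EPZ against ES_EPZ and 1 in d6G+H- against ESC, and leaving out dim probes gave 1 in ES_EPZ against Control (Cdkn2c was not tested there). Slide as a fixed block, slide as a random block (correlation 0.209) and the replicate block each gave 3 calls in ES_EPZ against Control, 2 in ADE_EPZ against ES_EPZ and 5 in d6G+H- against d5Ghigh, as did slides 1 to 3 only in the last, which was chosen after seeing the data, like all alternatives for d3G+ against ESC, d6G+H- against d5Ghigh and the F test. The replicate block left 6 calls in ADE_EPZ against Control, 3 in d6G+H- and 4 in d6G+H+ against ESC, and numbers did not pair the arrays of ES_EPZ and Control (0.14, -0.06 and 0.02). Scaling to the 75th percentile, which moved the median of all probes by -0.11 in ADE_EPZ against Control, gave 0 calls in d3G+ against ESC and 1 in d6G+H- against d5Ghigh, and called Cdkn2c lower at d6 (-2.65 and -2.67). Arrays of the series only gave 0 and 1 there, and arrays of the compared groups only gave 1 in d6G+H- against ESC and 0 in d6G+H- against d5Ghigh, where 0 of all 55681 probes were called under that setting, so the count says nothing about the members. The same setting called 0 of all probes in ES_EPZ against Control. The share of all probes called in ES_EPZ against Control ran from there to 0.496% without ES_EPZ replicate 2. Leaving out 1 array gave 0 to 2 calls in ES_EPZ against Control, 0 to 1 in ADE_EPZ against ES_EPZ, 0 to 3 in d6G+H- against ESC, 0 to 6 in d6G+H+ against ESC, 0 to 1 in d3G+ against ESC and 0 to 4 in d6G+H- against d5Ghigh. For the F test 1 replicate of every untreated group was left out at a time, and 5 to 8 member probes passed. The call in ADE_EPZ against ES_EPZ came without ES_EPZ replicate 3. The causes were not tested.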
